A study of Mus musculus with 3 samples.

Results

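Antibody variable genes were followed through 3 single-nucleus RNA libraries of whole mouse cornea. Every gene whose symbol starts with Ighv (heavy chain), Igkv (kappa light chain) or Iglv (lambda light chain) was considered. Genes were chosen by their measured counts, as those with 50 or more UMIs (unique molecular identifiers, 1 per captured RNA molecule) when the libraries were summed. That gave 165 of the 348 variable genes listed and of 30406 gene IDs in all. They were 81 of 185 heavy, 81 of 160 kappa and 3 of 3 lambda genes. Of the listed genes, 59 had 0 UMIs in every library. Ighv1-56, with 50 UMIs, Igkv5-40-1, with 52, and Igkv7-33, with 54, lay just inside the limit. Ighv1-62-3, with 49, Ighv1-30 and Igkv14-130, with 48 each, lay just outside.

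The library labelled WT came from untreated wild-type mice and the library labelled KO from untreated Aire knockout mice. The library labelled KO_PBS came from Aire knockout mice given phosphate-buffered saline for 14 days. Each library pooled the corneas of 5 mice at 7 weeks of age, so mice within a library cannot be told apart. The series text gives 6 weeks of age and treatment day 7 instead. Neither the strain nor the Aire allele is given in the labels, so the germline V genes of these mice may differ from those of the reference, and a UMI given to a named V gene is an assignment to the reference gene most like it. The KO_PBS counts were made on another gene list, of 31053 genes against 32285 for WT and KO, although all 348 variable genes are in both under the same symbols. Each group is 1 library, so replicate error is unknown, no p-value is given, and the intervals printed here describe counting error alone.

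A B cell builds its receptor by joining 1 germline variable (V) gene to short joining segments, once for the heavy chain and once for a kappa or lambda light chain. Rearrangement is followed by splicing to a constant region gene, whose class (IgM, IgD, IgG, IgA or IgE) can later be switched. Plasma cells, the antibody-secreting descendants of B cells, carry very large amounts of this RNA, and all descendants of 1 B cell keep the same pair of V genes. Mice without Aire, which drives the display of self-antigens in the thymus, develop autoimmune disease that reaches the tear glands and the ocular surface.

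Germline V genes of a family can differ by few bases, which sets how surely a read can be given to 1 of them. The V exon of each gene was taken from GENCODE M21 on build GRCm38 (mm10). All 165 exons were found. Their identity to the nearest other listed gene of the chain had a median of 95.2% and ran from 58.5% to 100%. In all, 92 of the 165 were at least 95% identical to another listed gene and 33 at least 97%. The leading heavy and kappa genes of the knockout libraries are shown with their nearest relatives, each as the last 270 bases of the V exon, 5′ to 3′. Capitals mark the bases at which a pair differs within this stretch.

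Igkv5-45 held the most kappa UMIs in KO. It lies on chromosome 6, minus strand, and its stretch is chr6:69775750-69776019, in the coding V exon. The same stretch of Igkv5-43, also on the minus strand, is chr6:69823355-69823624. Over the whole exon 295 of 298 bases were identical, 98.99%, with a longest shared run of 193 bases. Igkv5-45 and Igkv5-43 read as follows.
Igkv5-45: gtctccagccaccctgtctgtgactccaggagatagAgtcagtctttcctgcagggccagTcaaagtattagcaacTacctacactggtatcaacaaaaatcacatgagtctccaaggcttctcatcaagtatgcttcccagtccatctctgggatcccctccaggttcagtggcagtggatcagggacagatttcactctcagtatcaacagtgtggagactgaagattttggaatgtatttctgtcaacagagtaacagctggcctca
Igkv5-43: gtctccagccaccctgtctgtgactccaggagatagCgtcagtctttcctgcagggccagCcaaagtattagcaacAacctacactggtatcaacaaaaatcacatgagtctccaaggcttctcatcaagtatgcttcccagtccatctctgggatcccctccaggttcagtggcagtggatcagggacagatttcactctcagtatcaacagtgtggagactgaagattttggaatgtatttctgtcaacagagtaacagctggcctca

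Igkv1-110 held the most kappa UMIs in KO_PBS. Its stretch, on the plus strand of the coding V exon, is chr6:68270998-68271267, and that of Igkv1-117, also on the plus strand, is chr6:68121558-68121827. These exons were identical at 303 of 313 bases, 96.8%, with a longest shared run of 142 bases.
Igkv1-110: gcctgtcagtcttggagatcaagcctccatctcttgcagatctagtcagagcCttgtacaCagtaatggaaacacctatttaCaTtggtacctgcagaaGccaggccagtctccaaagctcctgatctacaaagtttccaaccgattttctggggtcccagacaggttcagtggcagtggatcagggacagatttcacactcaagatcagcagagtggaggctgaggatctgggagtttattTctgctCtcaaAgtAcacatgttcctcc
Igkv1-117: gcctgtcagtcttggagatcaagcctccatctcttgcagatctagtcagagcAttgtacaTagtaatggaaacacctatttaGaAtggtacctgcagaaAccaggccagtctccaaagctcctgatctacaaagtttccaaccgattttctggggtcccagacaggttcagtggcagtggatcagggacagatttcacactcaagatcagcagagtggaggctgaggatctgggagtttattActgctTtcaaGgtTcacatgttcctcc

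Ighv10-1 held the most heavy-chain UMIs in KO. Its stretch, on the minus strand of the coding V exon, is chr12:114479005-114479274, and that of Ighv10-3, on the same strand, is chr12:114523441-114523710.
Ighv10-1: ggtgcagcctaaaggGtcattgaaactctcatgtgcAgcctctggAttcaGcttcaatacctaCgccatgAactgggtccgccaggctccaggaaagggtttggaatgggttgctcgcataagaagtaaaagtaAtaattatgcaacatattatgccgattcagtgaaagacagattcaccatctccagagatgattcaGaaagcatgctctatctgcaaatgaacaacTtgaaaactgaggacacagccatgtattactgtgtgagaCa
Ighv10-3: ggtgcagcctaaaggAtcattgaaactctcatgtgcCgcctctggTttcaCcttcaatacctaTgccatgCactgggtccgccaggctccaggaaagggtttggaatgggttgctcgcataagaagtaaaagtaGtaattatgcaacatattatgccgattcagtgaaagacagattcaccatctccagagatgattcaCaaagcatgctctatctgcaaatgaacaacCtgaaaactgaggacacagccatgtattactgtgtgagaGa

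Ighv5-9 held the most heavy-chain UMIs in KO_PBS. Its stretch, on the minus strand of the coding V exon, is chr12:113661769-113662038, and that of Ighv5-6, on the same strand, is chr12:113625506-113625775.
Ighv5-9: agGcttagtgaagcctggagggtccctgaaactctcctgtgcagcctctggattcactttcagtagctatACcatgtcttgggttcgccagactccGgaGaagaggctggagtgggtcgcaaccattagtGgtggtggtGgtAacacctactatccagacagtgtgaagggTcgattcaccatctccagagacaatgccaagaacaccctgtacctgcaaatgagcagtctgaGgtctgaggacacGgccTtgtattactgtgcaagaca
Ighv5-6: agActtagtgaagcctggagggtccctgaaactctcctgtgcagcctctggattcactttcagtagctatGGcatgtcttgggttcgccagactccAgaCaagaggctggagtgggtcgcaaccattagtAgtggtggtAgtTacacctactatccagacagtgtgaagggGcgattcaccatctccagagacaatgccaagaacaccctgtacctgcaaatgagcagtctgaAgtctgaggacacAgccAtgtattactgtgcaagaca

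Barcodes numbered 96587 for WT, 107031 for KO and 114357 for KO_PBS, and UMIs 256852883, 352627863 and 178988562. Median UMIs per barcode were 2261, 2980 and 1432 in the same order. Aire, the gene named as knocked out, had 15 UMIs (WT), 27 (KO) and 68 (KO_PBS), or 0.0586, 0.0768 and 0.382 CPM. It was thus not lower in the libraries labelled as knockouts and does not check the labels, and directions are by label. Summed over 5 corneal epithelial genes the level was 41827 CPM (counts scaled to 1000000 UMIs per library) for WT, 29662 for KO and 17287 for KO_PBS, with none at 0. Krt12 and Krt5 carried that order, whereas Aldh3a1 was at 5762, 7158 and 7739 CPM, Krt14 at 609.3, 1854 and 720.5, and Pax6 at 506.0, 400.3 and 458.8. The keratocyte genes differed among themselves between KO and KO_PBS. Kera was at 156.1 and 32.9 CPM, Lum at 384.9 and 155.6, Dcn at 952.3 and 841.3, Aldh1a1 at 53.4 and 80.3, and Ptgds at 132.7 and 4145. Genes of lens, retinal pigment epithelium and melanocytes were all higher in KO_PBS than in KO by the size rule given below, as were 39.9% of all genes, with a median log2 ratio of 5.31 for the 4 lens genes. KO and KO_PBS shared 3379 barcode sequences, 3.16% of those in KO and 2.95% of those in KO_PBS. The shared barcodes held 3.20% of the KO_PBS variable-gene UMIs and 2.97% of all its UMIs. WT shared 2833 barcodes with KO and 2998 with KO_PBS.

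Variable-gene RNA was abundant in KO, low in KO_PBS and close to absent in WT. All listed variable genes together gave 156 UMIs for WT, 418434 for KO and 3096 for KO_PBS. In CPM this was 0.610 for WT (95% Poisson interval 0.518 to 0.713), 1191 for KO (1187 to 1195) and 17.4 for KO_PBS (16.8 to 18.0). Each of the 3 chains stood in the same order, KO above KO_PBS above WT. Heavy-chain V genes were at 0.148 CPM for WT, 161.6 for KO and 3.44 for KO_PBS, so that KO exceeded KO_PBS 47.0-fold. Kappa V genes were at 0.449, 850.6 and 12.6 CPM, a 67.7-fold difference between the knockout libraries. Lambda V genes were at 0.0117, 178.8 and 1.42 CPM, a 126-fold difference. In bulk sums such as these, fewer cells of a type and less RNA per cell cannot be told apart.

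The constant region genes, which lie at the 3′ end of the same transcripts and are read far more often by a 3′ library, differed less between the knockout libraries. Their sum was 3.76 CPM for WT, 21003 for KO and 1819 for KO_PBS, so KO exceeded KO_PBS 11.5-fold, against 68.4-fold for the variable genes. Per 100 heavy constant UMIs there were 8.96 heavy V UMIs for WT, 1.92 for KO and 0.429 for KO_PBS. Per 100 Igkc UMIs, the kappa constant gene, there were 23.3 kappa V UMIs for WT, 6.86 for KO and 1.28 for KO_PBS. The lower yield of variable UMIs in KO_PBS was thus present in both chains, by 4.47-fold for heavy and 5.36-fold for kappa. In barcodes with 10 to 49 Igkc UMIs the yield was 7.62 kappa V UMIs per 100 Igkc UMIs in KO (67152 barcodes) and 0.631 in KO_PBS (161 barcodes, 18 kappa V UMIs, interval 0.374 to 1.00). In KO it was 5.97 in the 9000 barcodes with at least 100 Igkc UMIs, and in KO_PBS 0.566 in 5 barcodes, from 4 kappa V UMIs.

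The T cell receptor V genes, which are rearranged in the same way in T cells, also had their lowest yield in KO_PBS. The 163 listed Trav and Trbv genes together gave 30 UMIs for WT, 1278 for KO and 202 for KO_PBS, or 0.117, 3.64 and 1.14 CPM. Their constant genes had 284, 17795 and 9605 UMIs, or 1.11, 50.6 and 54.0 CPM, and so were not lower in KO_PBS than in KO. Per 100 constant UMIs the V UMIs numbered 10.6 for WT (7.00 to 15.4), 7.18 for KO (6.78 to 7.602) and 2.10 for KO_PBS (1.82 to 2.42). The WT and KO intervals overlapped. The median UMIs per barcode given above were also lowest in KO_PBS. The part of library construction, depth or RNA quality in these yields was not tested.

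Lambda differed from the other chains. Per 100 UMIs of the lambda constant genes Iglc1, Iglc2 and Iglc3 there were 6.67 lambda V UMIs for WT (1.33 to 20.8, from 3 UMIs), 105 for KO and 3.83 for KO_PBS. The KO value above 100 came from Iglv1, with 60789 UMIs against 59664 over the 3 constant genes. Iglc2 and Iglc3 transcripts were 95.4% identical where they aligned, and Iglv1, Iglc1 and Iglc3 lie within 2010309G21Rik, an antisense gene with 22 UMIs for WT, 650 for KO and 256 for KO_PBS. Loss of reads between near copies or opposite strands was not tested, so the lambda yield is uncertain.

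**Figure D1:**
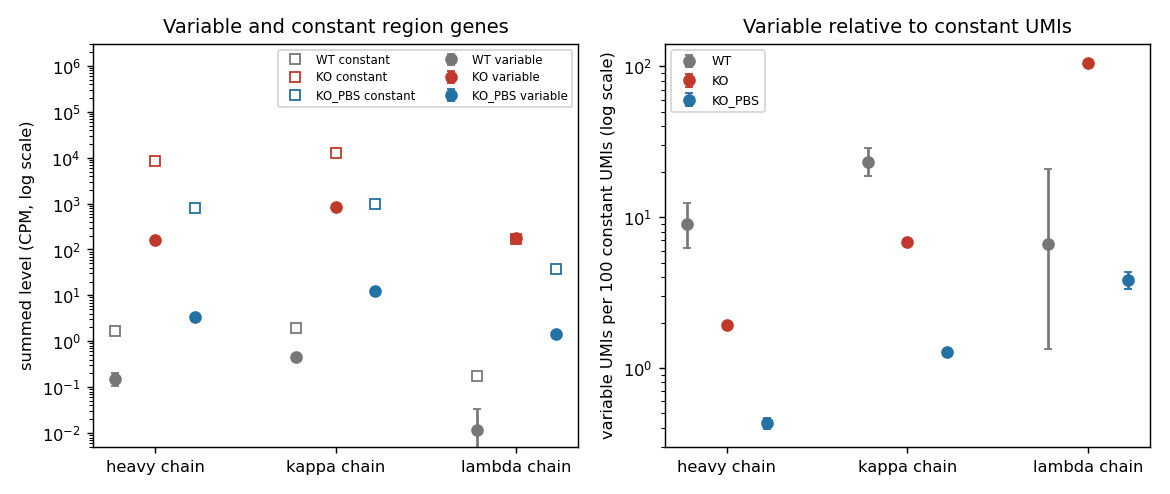
The left panel plots the summed CPM (log axis) of variable genes (filled circles, 95% Poisson bars) and constant region genes (open squares) by chain in the 3 libraries, and the right panel the variable UMIs per 100 constant UMIs with exact 95% intervals. Variable genes stand at 850.6 CPM for kappa in KO and 12.6 in KO_PBS, and the yield per constant UMI is lowest in KO_PBS for heavy and kappa, while the WT lambda interval covers the KO_PBS value.

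Usage is given from here on as the share of a chain's variable UMIs held by each gene, with exact binomial (Clopper-Pearson) intervals. A share divides out the chain's total in a library. Whether shares vary with that total in another way was not tested. In KO kappa held 71.4% of variable UMIs, lambda 15.0% and heavy 13.6%. In KO_PBS kappa held 72.1%, heavy 19.7% and lambda 8.14%. The levels of V genes are compared within a chain only, since their exons are of like length there, 301 to 351 bases for heavy and 293 to 316 for kappa.

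In KO the heavy chain was led by Ighv10-1, followed by Ighv14-3, Ighv9-3 and Ighv2-9. Ighv10-1 had 2 UMIs (WT), 8510 (KO) and 59 (KO_PBS), so it held 15.0% of heavy UMIs in KO (14.7 to 15.3) and 9.66% in KO_PBS (7.43 to 12.3). It ranked first in KO and second in KO_PBS. Ighv14-3 had 0, 4736 and 4 UMIs, a share of 8.34% in KO and 0.655% in KO_PBS (0.179 to 1.67). Ighv9-3 had 0, 4691 and 11 UMIs, or 8.26% and 1.80%. The KO_PBS intervals of both lay below the KO shares. Ighv2-9, by contrast, had 0, 3491 and 43 UMIs and similar shares of 6.15% in KO and 7.04% in KO_PBS (5.14 to 9.37). The next genes in KO were Ighv1-14 (3.77%), which is annotated as a pseudogene, Ighv9-1 (2.79%), Ighv2-6 (2.79%) and Ighv4-1 (2.67%). Of these, Ighv9-1 and Ighv2-6, with 1586 and 1584 UMIs, did not differ beyond counting error.

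In KO_PBS the heavy chain was led by a gene that was minor in KO. Ighv5-9 had 0 UMIs (WT), 497 (KO) and 65 (KO_PBS), a share of 0.875% in KO and 10.6% in KO_PBS (8.31 to 13.4). Its interval overlapped that of Ighv10-1 in the same library, so the first and second ranks did not differ beyond counting error. Ighv2-6-8 had 0, 67 and 25 UMIs, or 0.118% in KO and 4.09% in KO_PBS. It was the heavy gene not counted as lower in KO_PBS by CPM, at 0.191 CPM in KO and 0.141 in KO_PBS. Ighv6-3 (0, 639 and 21 UMIs), Ighv6-6 (0, 312 and 17) and Ighv3-6 (0, 855 and 13) were the other leaders. Their shares went from 1.13%, 0.550% and 1.51% in KO to 3.44%, 2.78% and 2.13% in KO_PBS. For Ighv3-6 the KO_PBS interval, 1.14 to 3.61, covers the KO share.

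The kappa chain in KO was led by Igkv5-45 and Igkv16-104. Igkv5-45 had 2 UMIs (WT), 46959 (KO) and 104 (KO_PBS), which made 15.7% of kappa UMIs in KO and 4.66% in KO_PBS (3.82 to 5.61). Igkv16-104, the single gene of its family, had 0, 36937 and 30 UMIs, or 12.4% and 1.34% (0.908 to 1.91). Igkv12-46 had 24, 25349 and 88 UMIs, or 8.48% and 3.94%. All 3 were thus higher by share in KO, and Igkv12-46 was also read in WT. Igkv12-44 had 4, 18884 and 26 UMIs (6.32% and 1.16%) and Igkv10-96 had 2, 17571 and 14 (5.88% and 0.627%). Igkv5-39 (0, 10243 and 5 UMIs) and Igkv5-43 (0, 9160 and 4) had KO shares of 3.43% and 3.06% and KO_PBS shares of 0.224% and 0.179%. Igkv1-135 was higher by share in KO_PBS. It had 10 UMIs (WT), 10365 (KO) and 166 (KO_PBS), and its share was 3.47% in KO and 7.43% in KO_PBS (6.38 to 8.60).

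In KO_PBS 1 kappa gene, Igkv1-110, held 40.4% of the chain's UMIs (38.4 to 42.5), against 0.166% in KO. It had 1 UMI (WT), 496 (KO) and 903 (KO_PBS), and was 1 of 2 genes among the 165 with more UMIs in KO_PBS than in KO. Its level was 1.41 CPM in KO and 5.08 in KO_PBS, a ratio of 3.60. The 903 UMIs came from 897 barcodes, so they were not the content of a few barcodes. In the lowest 25% of KO_PBS barcodes by UMIs its share was 42.9% (37.7 to 48.3), close to the share in the whole library. The 13 KO_PBS barcodes with at least 50 Igkc UMIs held 10 variable UMIs in all, 8 of them kappa, of which 3 were from Igkv1-135 and 0 from Igkv1-110, too few to give a share.

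The second gene with more UMIs in KO_PBS was Igkv5-37, with 0 (WT), 75 (KO) and 80 (KO_PBS). It made 0.0251% of kappa UMIs in KO and 3.58% in KO_PBS (2.85 to 4.44). Igkv8-19 (0, 670 and 145 UMIs), Igkv1-117 (0, 8513 and 113) and Igkv3-1 (0, 1645 and 89) were the other KO_PBS leaders. The share of Igkv8-19 was 0.224% in KO and 6.49% in KO_PBS, that of Igkv3-1 0.550% and 3.99%, and that of Igkv1-117 2.85% and 5.06%.

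**Figure D2:**
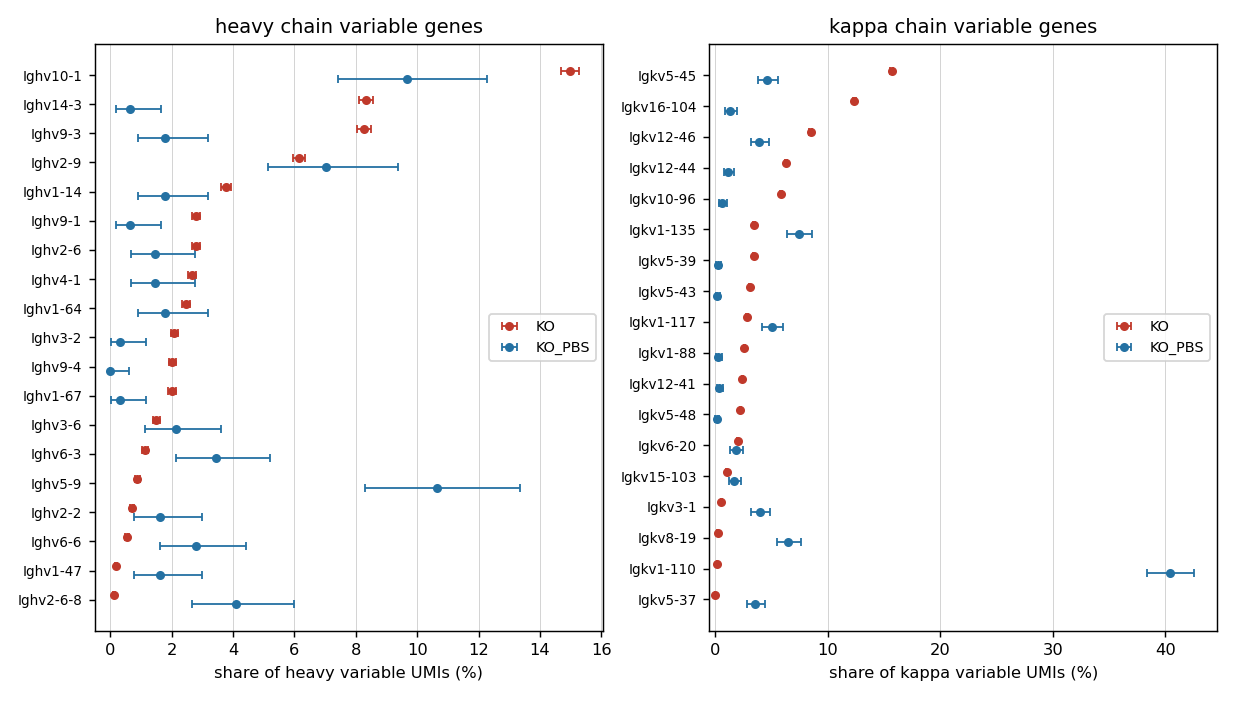
Shares of heavy (left) and kappa (right) variable UMIs are plotted for the genes that are among the leading ones of KO (red) or KO_PBS (blue), with exact 95% intervals for counting error. Igkv1-110 stands apart at 40.4% in KO_PBS, and Ighv5-9 and Ighv2-6-8 are high in KO_PBS while near 0 on this axis in KO.

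Lambda usage was dominated by Iglv1 in both knockout libraries. Iglv1 had 2 UMIs (WT), 60789 (KO) and 217 (KO_PBS), or 96.8% of lambda UMIs in KO and 86.1% in KO_PBS (81.2 to 90.1). Iglv3 had 1, 1850 and 25 UMIs and Iglv2 0, 164 and 10. The share of Iglv2, which is 97.05% identical to Iglv1, was 0.261% in KO and 3.97% in KO_PBS.

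WT held too few variable UMIs to describe its usage. Of the 165 genes, 43 had a UMI in WT and 7 had at least 3. The highest was Igkv20-101-2, with 28 UMIs in 28 barcodes, 33 in KO and 0 in KO_PBS. Its level was 0.109 CPM in WT and 0.0939 in KO, with overlapping intervals, and it was the single one of the 163 genes compared that was not counted as higher in KO. Without it the WT kappa yield was 17.6 per 100 Igkc UMIs. Igkv12-46 had 24 UMIs in WT, Igkv1-135 had 10, Igkv12-44 had 4, and Igkv10-94, Igkv6-15 and Ighv1-77 had 3 each. The Igkv12-46 UMIs were concentrated. The WT barcode with the most variable UMIs held 9, all from Igkv12-46, beside 19 Igkc UMIs.

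Each gene was then compared between libraries by a rule of size. It asked for 50 or more UMIs in the compared libraries combined, a CPM ratio of 2-fold or more with counts under 3 set to 3, and separate 95% Poisson intervals. It is not a test. Because 417022 of the UMIs that chose the genes came from KO, the choice itself favours genes high in KO, so counts are given as a description. Between KO_PBS and KO, 160 of 164 variable genes were counted as lower in KO_PBS, where 4.7% of all 22416 genes were, and 2 as higher, where 39.9% of all genes were. The median log2 ratio was -5.42 for these genes and 0.63 for all genes. By chain, 80 of 81 heavy, 77 of 80 kappa and 3 of 3 lambda genes were lower. Scaled instead to the constant region UMIs of the same chain, a choice made after seeing the data, 102 genes were lower and 8 higher. On that scale 98.2%, 98.3% and 96.1% of all genes were higher and 0.745%, 0.678% and 1.18% lower, with heavy, kappa and lambda constant UMIs as the measure, since the constant genes were themselves lower in KO_PBS. By CPM, the genes counted as higher were Igkv1-110 and Igkv5-37, and those counted neither way were Ighv2-6-8 and Igkv7-33, with 45 UMIs in KO and 9 in KO_PBS. Igkv20-101-2 had too few UMIs for this comparison.

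Between KO and WT, 162 of 163 variable genes were counted as higher in KO, where 20.6% of all genes were, and 0 as lower, where 8.63% were. The median log2 ratio was 6.92, against 0.24 for all genes. Of the 165 genes, 122 had 0 UMIs in WT and 28 had 0 in KO_PBS, so many of these ratios rest on the floor of 3 counts. Only 11 genes had enough UMIs to be compared between KO_PBS and WT, and all 11 were counted as higher in KO_PBS, where 57% of all genes were, and 0 as lower, where 4.06% were. With at most 28 UMIs for any of the 165 genes in WT, the 50-UMI limit all but fixed that direction. The KO library enters both of the first comparisons.

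Among genes with at least 500 UMIs in the higher library, the ratio between the knockout libraries differed widely from gene to gene. Igkv5-43 was 1159-fold lower in KO_PBS by CPM (exact 95% counting interval 453 to 4255). Igkv5-48, with 1, 6668 and 3 UMIs in WT, KO and KO_PBS, was 1125-fold lower (385 to 5456), and Igkv5-39 was 1037-fold lower (444 to 3194). The intervals of these 3 overlapped. These 3 genes belong to the same family as Igkv5-45, which was 229-fold lower (189 to 280.0), and Igkv5-37, which was 2.11-fold higher. Igkv8-30 had 4386 UMIs in KO and 0 in KO_PBS, so it was 740-fold lower with its KO_PBS count set to the floor of 3. Igkv1-88 (0, 7753 and 6 UMIs) was 654-fold lower. At the other end, after Igkv1-110, Igkv8-19 was 2.34-fold lower and Igkv3-1 9.35-fold. Ighv6-3 was 15.4-fold and Igkv4-59 (0, 511 and 12 UMIs) 21.6-fold lower.

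**Figure D3:**
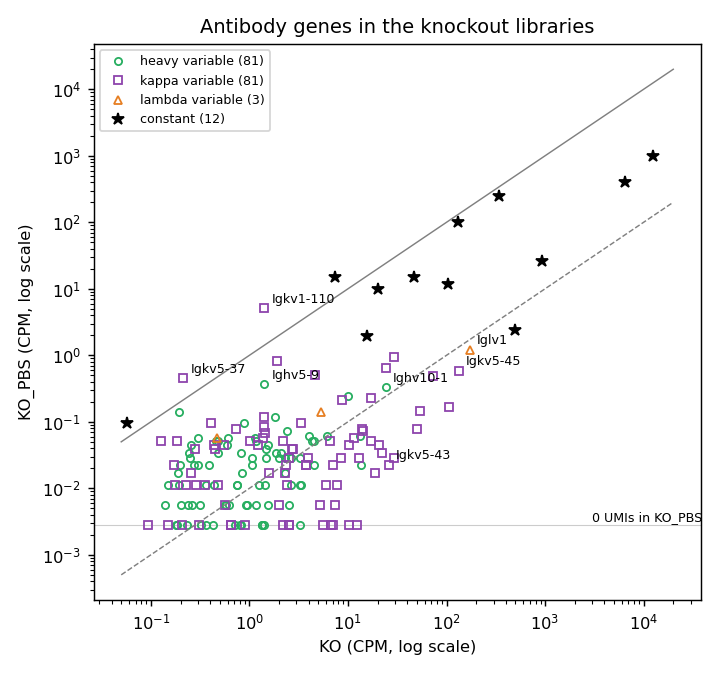
Each variable gene and each constant region gene is plotted by its CPM in KO and KO_PBS on log axes, with the solid line at equal levels, the dashed line at 100-fold lower in KO_PBS, and genes at 0 UMIs in KO_PBS on the lowest row. Igkv1-110 and Igkv5-37 lie above the solid line, and Igkv5-43 lies below the dashed line at 26.1 CPM in KO and 0.0225 in KO_PBS.

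Since nearly all variable genes were lower together, the same rule was applied to each library scaled to its own variable UMIs of all chains. On that scale 39 of 164 genes were higher in KO_PBS and 37 lower. Of all genes tested 99.1% were higher on this scale and 0.214% lower, since nearly every other gene outweighed the variable genes in KO_PBS. The larger part of heavy UMIs in KO_PBS enters those counts. Scaled to the variable UMIs of the gene's own chain, a choice made after seeing the data, 36 were higher and 38 lower. By chain these were 15 higher and 9 lower for heavy, 19 and 29 for kappa, and 2 and 0 for lambda. Of all genes 99%, 99.1% and 99.3% were higher on the heavy, kappa and lambda scales and 0.277%, 0.214% and 0.116% lower. Shares sum to a fixed total, so genes in both directions follow from any difference. The usage that the knockout libraries shared, summed over genes as the smaller of both shares, was 55.5% for heavy, 31.4% for kappa and 89.3% for lambda. Of the 10 leading genes of each library 5 heavy and 4 kappa genes were the same. The kappa genes were Igkv5-45, Igkv12-46, Igkv1-135 and Igkv1-117.

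Evenness of usage was summarised as the effective number of genes, the exponential of the Shannon entropy, which equals the number of genes if all were used alike. For heavy genes it was 36.8 in KO and 36.0 in KO_PBS, from 81 and 68 genes seen. For kappa genes it was 27.3 in KO and 13.5 in KO_PBS, from 81 and 66 genes seen. KO gave 55955 heavy and 298264 kappa UMIs to these numbers, and KO_PBS 519 and 2189. The effective numbers were not brought to a common depth. Without the leading gene of each library the kappa numbers were 30.3 and 26.5, so the lower kappa evenness of KO_PBS rested largely on its leading gene, Igkv1-110. With all listed genes in place of those with 50 UMIs, the heavy numbers became 39.6 in KO and 53.2 in KO_PBS. The order of the heavy numbers thus turned with the 50-UMI limit, which most genes passed through KO. Over all listed genes and drawn down to the KO_PBS depth of 611 heavy and 2233 kappa UMIs, KO would show 77.5 heavy and 74.4 kappa genes, against 110 and 87 seen in KO_PBS. Among the 165 genes alone, at 519 heavy and 2189 kappa UMIs, KO would show 67.8 and 70.2, against 68 and 66. The 10 leading genes of all chains held 58.5% of variable UMIs in KO and 63.6% in KO_PBS.

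Families, the groups of V genes of like sequence that share the first number in the symbol, showed the same contrast. In KO kappa the families Igkv5 (24.5%), Igkv12 (17.5%), Igkv16 (12.4%) and Igkv1 (10.9%) held most UMIs. In KO_PBS Igkv1 held 55.2%, with Igkv5 at 8.78% and Igkv12 at 6.05%. Of the 1233 Igkv1 UMIs in KO_PBS, 903 were from the single gene Igkv1-110. Heavy families differed less. Ighv1, the largest family, held 27.4% in KO and 25.5% in KO_PBS, Ighv10 held 15.2% and 10.5%, and Ighv9 held 13.9% and 2.45%. Ighv5 held 7.67% in KO and 20.3% in KO_PBS, and Ighv2 11.7% and 17.5%. Usage shared by family was 74.2% for heavy and 47.4% for kappa.

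V genes lie in long arrays, and the genes near the joining segments are at the end nearest to their rearrangement partners. The listed heavy V genes span chr12:113572927-116010093, or 2437 kb, and the kappa V genes chr6:67555497-70704177, or 3149 kb. Each array was split into 4 equal stretches counted from the joining end. Heavy UMIs lay mostly in the stretches nearest to the joining end in both knockout libraries, with 49.1% and 33.4% in the first and second stretch in KO and 51.9% and 31.8% in KO_PBS. Those stretches also held most heavy genes, 54 and 54 of the 185 listed and 26 and 22 of the 81 with 50 UMIs. Kappa UMIs were placed differently. In KO the second stretch, with Igkv5-45, Igkv12-44 and Igkv12-46, held 43.7% and the third 26.9%. In KO_PBS the fourth, with Igkv1-110, Igkv1-117 and Igkv1-135, held 58.4% and the first 21.3%. Of the 1304 KO_PBS UMIs in the fourth stretch, 903 were from Igkv1-110. From the first to the fourth, the kappa stretches held 39, 49, 36 and 36 listed genes. Kappa V genes lie on both strands, 85 listed genes on the minus and 75 on the plus strand. Those on the minus strand held 66.2% of kappa UMIs in KO and 33.4% in KO_PBS. Igkv1-110, on the plus strand, by itself held 40.4% of kappa UMIs in KO_PBS. Shares by family, stretch and strand were not computed without this gene.

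**Figure D4:**
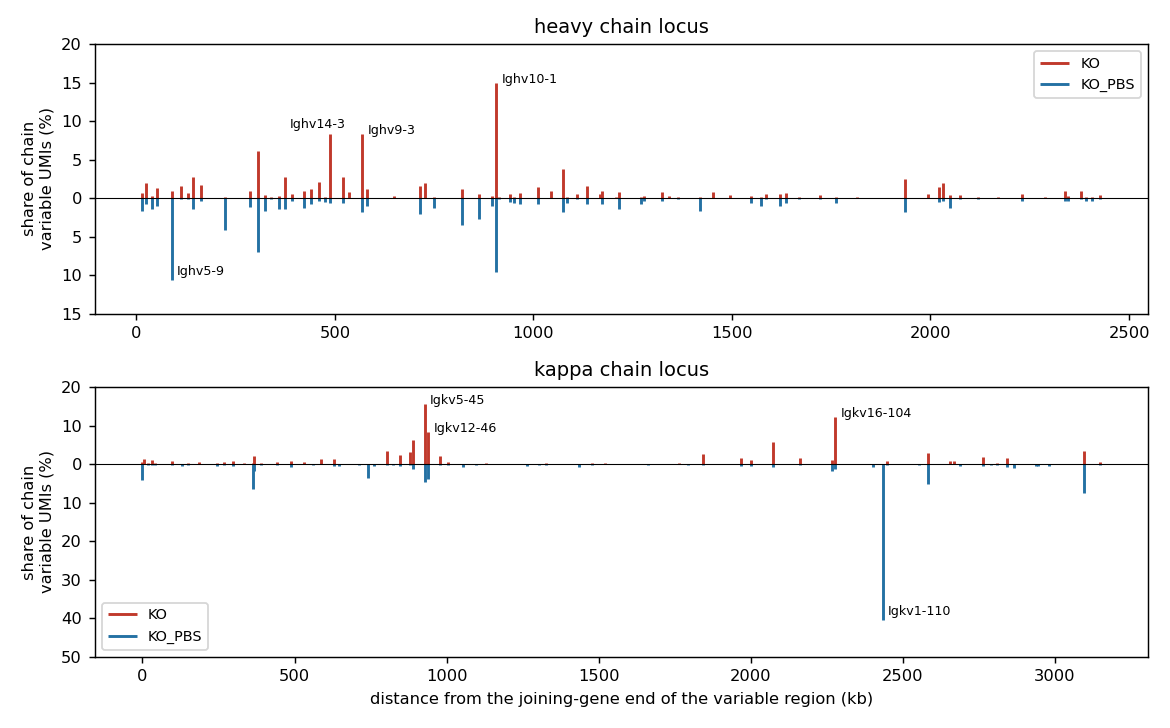
The share of each variable gene is drawn at its distance in kb from the joining-gene end of the heavy (top) and kappa (bottom) V array, upward for KO and downward for KO_PBS. Heavy usage lies mostly within the first 2 of 4 equal stretches in both libraries, while the kappa bars of KO_PBS are led by Igkv1-110 in the fourth stretch.

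Genes annotated as pseudogenes, which cannot give a full antibody chain, were 9 of the 81 heavy and 4 of the 81 kappa genes with 50 UMIs. Over all listed genes they held 8.88% of heavy UMIs in KO (8.65 to 9.12) and 12.4% in KO_PBS (9.93 to 15.3). In WT they held 44.7%, from 17 UMIs (28.6 to 61.7). Kappa pseudogenes held 0.405% in KO, 1.07% in KO_PBS and 6.09% in WT, the last from 7 UMIs.

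Variable UMIs were spread over most barcodes of KO. At least 1 was present in 0.129% of WT barcodes, 81.4% of KO barcodes and 2.65% of KO_PBS barcodes. Among the lowest 25% of each library by UMIs, at median depths of 1571, 2002 and 976 UMIs, the shares were 0.0786%, 69.9% and 1.64%. Igkv5-45 held 16.7% of kappa UMIs in those KO barcodes, close to its 15.7% in the library. A single variable UMI was therefore not read as marking a B cell or plasma cell. Within a barcode, however, UMIs were more alike than across the library. In KO 39.5% of pairs of heavy UMIs from the same barcode came from the same gene, against 5.09% of pairs drawn from the whole library. For kappa these values were 47.6% and 6.40%, and for lambda 95.7% and 93.8%. The KO pairs came from 11385 barcodes for heavy and 52690 for kappa. A barcode with more UMIs gives more pairs, so the UMI-rich barcodes weigh most in these values. KO_PBS had 33 such kappa pairs, of which 14 were of the same gene, 42.4% against 19.1% in its library.

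Barcodes with at least 20 variable UMIs, here called variable-rich, were seen in KO alone. There were 2535, which is 2.37% of KO barcodes, and they held 18.7% of its variable UMIs and 3.48% of all its UMIs. WT and KO_PBS had 0, and their highest barcodes held 9 and 3 variable UMIs. In 1570 of the 2535, 61.9%, 1 light-chain gene held at least 50% of the light-chain UMIs, and in 154 at least 90%. The most frequent leaders were Igkv5-45 in 517 barcodes, Igkv16-104 in 379, Iglv1 in 292, Igkv12-44 in 230, Igkv12-46 in 222 and Igkv5-43 in 109. The first of these, Igkv5-45, held a median of 67.6% of the light-chain UMIs of the barcodes that it led. Leaders of variable-rich barcodes were thus mostly the leaders of the whole library.

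Near copies were compared within these barcodes. In the barcodes led by Igkv5-45, Igkv5-43 held 0.802% of light-chain UMIs, against 0.541% in the variable-rich barcodes led by neither gene. In the 109 barcodes led by Igkv5-43, which held a median of 75.0% there, Igkv5-45 held 2.73%, against 3.27% in those led by neither. This pair, whose printed stretches differ at 3 bases, was thus read largely in separate barcodes, although Igkv5-43 was higher beside Igkv5-45 than elsewhere. Among the other near copies compared, Igkv12-41 was higher beside Igkv12-44, and Iglv2 beside Iglv1, than in the other variable-rich barcodes. Igkv12-41 was not higher beside Igkv12-46. Igkv1-110 showed the widest difference. In the 53 barcodes led by Igkv1-117 it held 2.39% of light-chain UMIs, against 0.0472% in those led by neither gene, so its share in KO was higher beside its near copy. In KO_PBS Igkv1-110 had 903 UMIs and Igkv1-117 113, so there the order of the pair was the opposite.

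Heavy and light leaders could be set side by side in 255 barcodes, those with at least 5 heavy UMIs and a gene at 50% or more in both chains. They formed 95 different pairs, of which 38 were seen in more than 1 barcode. These repeated pairs covered 198 of the 255 barcodes, and 57 pairs were seen once. Leaders differed in how often they occurred, and the number of repeats expected from that was not computed. Repeats are therefore not read as descent from 1 B cell. Ighv2-6 was joined with Igkv12-46 in 24 of its 25 barcodes, and Ighg2b, an IgG constant gene, was the leading constant gene in 14 of the 24. Ighv14-3 was joined with Igkv16-104 in 20 of 30, of which 17 were led by Ighg1. Ighv9-3 was joined with Igkv12-44 in 16 of 42, all 16 led by Ighg1. Ighv10-1, the most used heavy gene, had several partners. It was joined with 8 light-chain genes in 49 barcodes, most often with Iglv1, in 15, and Igkv12-44, in 11. A barcode can hold RNA from more than 1 nucleus or from solution, so pairs are given as co-occurrence in a barcode, and doublets were not removed.

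**Figure D5:**
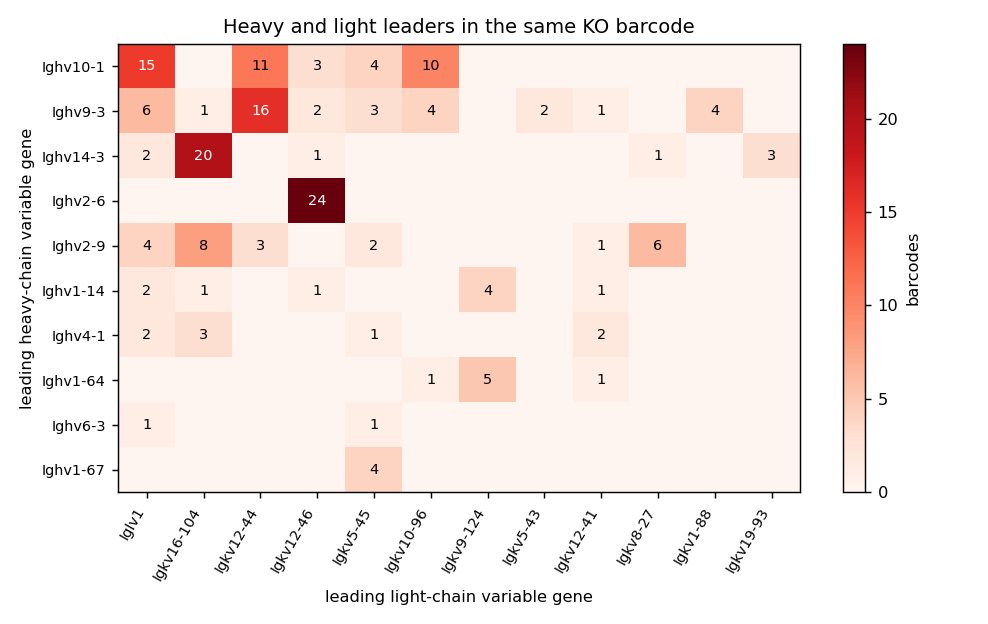
Numbers of KO barcodes are shown by leading heavy-chain gene (rows) and leading light-chain gene (columns) for the most frequent genes of each kind, among the 255 barcodes in which both could be named. Ighv2-6 falls in the Igkv12-46 column with 24 barcodes, while Ighv10-1 spreads over several columns.

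The other genes of the antibody pathway were described as lists. Plasma cell genes, 12 in all and none at 0 in any library, summed to 680.8 CPM for WT, 2151 for KO and 587.3 for KO_PBS, of which Sdc1, a gene that epithelium also expresses, made 519.5, 523.1 and 321.2. Of the 12, 11 were counted as higher in KO than in WT, where 20.6% of all genes were. Between KO_PBS and KO 8 were lower, 0 higher and 4 not counted, where 4.7% of all genes were lower and 39.9% higher. The median log2 ratio was -1.73, against 0.63 for all genes. Jchain, which links IgA and IgM into multimers, was at 0.488 CPM for WT, 1062 for KO and 67.1 for KO_PBS. Mzb1, an endoplasmic reticulum protein of antibody-secreting cells, was at 0.0625, 137.1 and 7.94 CPM. Both therefore followed the order of the variable genes. Tnfrsf17, the survival receptor BCMA of plasma cells, was at 0.0430, 1.58 and 0.472 CPM. Xbp1, a transcription factor of secretory cells, was at 110.0, 237.0 and 66.8 CPM.

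The sum over B cell genes did not follow the order of the variable genes, although Cd79a did. Cd79b was at 1.149, 20.1 and 19.2 CPM, with overlapping intervals in KO and KO_PBS. The B cell genes summed to 34.1 CPM for WT, 196.5 for KO and 220.7 for KO_PBS, with none at 0. Of 10, 9 were higher in KO than in WT, while between KO_PBS and KO 2 were higher, 1 lower and 7 not counted, with a median log2 ratio of 0.46. The shares over all genes were 20.6% higher for KO against WT and, for KO_PBS against KO, 39.9% higher and 4.7% lower, with a median of 0.63. Pax5, the transcription factor of B cell identity, was at 0.387 CPM (WT), 6.55 (KO) and 13.2 (KO_PBS), and Fcer2a, a receptor for IgE, at 0.137, 2.91 and 8.63. Cd79a, the signalling chain of the receptor, was the gene counted as lower, at 0.0899, 35.3 and 16.1 CPM. T cell genes, 6 in all, summed to 1.76 CPM for WT, 73.7 for KO and 68.8 for KO_PBS. B and T cell markers thus differed less between the knockout libraries than variable UMIs did. The part of these cells in the variable-gene differences was not tested.

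In the variable-rich KO barcodes Jchain was at 3595 CPM, against 967 in the other KO barcodes. Mzb1 was at 460.9 and 124.9 CPM, Derl3 at 29.5 and 8.62, and Tnfrsf17 at 5.38 and 1.44 from 66 UMIs. Other genes of the plasma cell list rose less or not at all. Txndc5 was at 75.0 and 46.3 CPM, Prdm1 at 39.9 and 40.9, and Sdc1 at 447.5 and 523.8. Cd79a was at 71.6 and 33.9 CPM, whereas Ms4a1, the B cell surface protein CD20, was at 21.5 and 19.6. Krt12, the keratin of corneal epithelium, was at 11478 CPM in these barcodes and 13824 in the others. Epithelial RNA was thus nearly as high in the variable-rich barcodes as elsewhere, and no cell type was given to them.

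The mix of heavy constant genes, which set the antibody class, differed between libraries. In WT Ighm held 212 of 424 heavy constant UMIs and Igha 172. In KO Ighg1 held 77.1%, Ighg2b 11.1%, Ighg2c 5.90%, Igha 4.07% and Ighm 1.54%. In KO_PBS Ighg1 held 50.9%, Igha 30.7%, Ighm 12.6%, Ighg2b 3.30% and Ighg2c 0.2998%. Of the constant genes tested between KO_PBS and KO 7 were lower, 1 higher and 3 not counted, beside 4.7% lower and 39.9% higher over all genes. The higher gene was Ighd, which mature unswitched B cells express, at 7.34 CPM in KO and 15.1 in KO_PBS. Ighm (129.7 and 101.2 CPM), Igha (343.4 and 246.1) and Iglc3 (20.2 and 10.1) were not counted, while Ighg2c was at 497.5 and 2.40 CPM. Of 2525 variable-rich barcodes in which a leading constant gene could be named, 79.8% were led by Ighg1.

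Of 12 genes of V gene rearrangement and later mutation, 1 was counted as higher in KO against WT and 0 as lower, with 9 not counted, where 20.6% of all genes were higher and 8.63% lower. Between KO_PBS and KO 2 were higher, 1 lower and 7 not counted, where 39.9% of all genes were higher and 4.7% lower. The median log2 ratio was -0.09, against 0.63 for all genes. Rag1 and Rag2, the recombinase, had 0 and 5 UMIs in KO and 13 and 25 in KO_PBS, too few for the rule. Dntt, which adds bases at the joins, had 24 UMIs (WT), 64 (KO) and 192 (KO_PBS). It was counted as higher in KO_PBS, at 0.182 CPM in KO and 1.08 in KO_PBS. Ung, a uracil glycosylase of DNA repair, was lower, at 12.1 CPM in KO and 4.52 in KO_PBS.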

How the data were processed

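Nuclei of whole cornea were profiled with 10x Genomics 3′ chemistry, as stated in the labels' protocols. The files that the authors deposited hold raw UMI counts for each gene in each barcode. They came from Cell Ranger 7.0.1, per the file headers, on mm10, per the submitters' processing notes. How intronic reads, reads shared by near copies and barcodes were filtered is not given in the sources used here.

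Genes were matched by Ensembl ID over the 30406 IDs found in all 3 gene lists. The KO_PBS list differs from that of WT and KO, and its effect on reads given to V genes was not tested. Counts were summed per library and scaled to CPM over these IDs. Barcodes were not clustered and no doublet caller was run. The size rule, with its 2-fold minimum, ran over all genes, and was tested on simulated data. Positions, gene types and V exons came from GENCODE M21. Exons were aligned with Biopython 1.88. The remaining work was done in python 3.11.15 with scipy 1.17.1, numpy 2.4.6, matplotlib 3.10.9 and pandas 2.3.3.

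Genes named are, per chain, the 8 with most UMIs in KO and in KO_PBS, the 5 smallest and 5 largest ratios among those with 500 UMIs in the higher library, and those with 3 or more UMIs in WT. The V genes and gene lists were chosen with earlier results of these data known. Alternatives covered barcode filters, pseudogenes, families, UMI minimums, scaling and the fold. Single values of some listed genes are not reported here. Scaling to constant UMIs was added after the data were seen.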

Additional observations from a re-analysis of the deposited data

How the results depend on the processing

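With 1 library per group, a left-out replicate or a paired refit has no meaning. No paired analysis was possible because each group has a single library. The counts of genes lower in KO_PBS or higher in KO stayed within 1.5 times of the values given under no UMI minimum, and the former also under the barcode filter, without the 10 barcodes with the most variable UMIs and at a fold of 4. Without those 10 barcodes WT kept 1 lambda UMI, a yield of 2.44 per 100 constant UMIs against 6.67, below the 3.78 of KO_PBS. With all listed genes the heavy effective number was 39.6 in KO and 53.2 in KO_PBS, against 36.8 and 36.0, which turns their order. Without pseudogenes, the 10 leading genes held 59.4% of variable UMIs in KO and 65.8% in KO_PBS, and Ighv10-1 held 16.5% of heavy UMIs in KO. Summed into families, effective numbers were 8.19 and 8.05 for heavy and 9.85 and 5.71 for kappa in KO and KO_PBS. With a minimum of 500 UMIs, the heavy numbers were 19.5 in KO and 14.9 in KO_PBS, and without Igkv1-110 kappa in KO_PBS was 26.5. The count of variable genes lower in KO_PBS than in KO was 160, and 84 with a minimum of 500 UMIs over both libraries, which tests fewer genes. The share of all genes lower at that minimum is not given here, so the 84 cannot be set against other genes. Scaled to variable UMIs the count of variable genes lower was 37, where 0.214% of all genes were lower. Scaled to the chain's constant UMIs, a choice made after seeing the data, it was 102, with 8 higher. On that scale 0.678% to 1.18% of all genes were lower and 96.1% to 98.3% higher. Scaled to the chain's own variable UMIs, also chosen after seeing the data, it was 38, with 36 higher. There 0.116% to 0.277% of all genes were lower and 99% to 99.3% higher. The count higher in KO than in WT was 81 at 500 UMIs, a minimum that also tests fewer genes. The share of all genes higher at that minimum is not given here either. Barcodes with at least 10, 50 or 100 variable UMIs numbered 10102, 193 and 18 in KO. WT depth limits its usage to a description.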
